A study of Homo sapiens with 12 samples.

Results

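The genes of the platelet-derived growth factor (PDGF) family were followed in BT549, a human breast cancer line of the triple-negative type with mesenchymal features. The 7 genes are the ligands PDGFA, PDGFB, PDGFC and PDGFD, the receptor tyrosine kinases PDGFRA and PDGFRB, and PDGFRL, which codes for a receptor-like protein. They were taken by name from 17958 genes, each through its probe set with 1 gene symbol. They were selected on measured values in so far as the fall of PDGFRL with c-Jun siRNA was known when the family was picked, and the other 6 genes came with it by family name. Among several probe sets of a gene, that of the highest 12-array mean stood for it. That choice arose for PDGFA alone, whose used probe set averaged 5.05 and whose other probe set averaged 4.07 (log2 expression). Each of the other 6 genes had a single probe set.

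The cells were compared in 4 groups of 3 arrays. These were c-Jun siRNA followed by TNFα, control siRNA followed by TNFα, c-Jun siRNA followed by vehicle, and control siRNA followed by vehicle. Each siRNA was present for 72 hours, and TNFα or vehicle was then given for 6 hours. All groups are 1 cell line and were transfected, and a pool of siRNAs lowers its target without removing it. TNFα is an inflammatory cytokine, and c-Jun, which JUN encodes, forms part of the transcription factor AP-1. The design asks which TNFα responses depend on c-Jun. Whether replicates came from separate cultures is not stated in the labels, and p-values therefore reflect only the scatter among these samples, which may be technical.

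PDGF ligands are secreted dimers of A, B, C or D chains that pair receptor molecules on the cell surface and switch on their kinase domains. The α receptor binds dimers of A, B and C chains, and the β receptor those of B and D chains. C and D chains are secreted in a latent form, and proteases such as tissue plasminogen activator remove an inhibitory domain outside the cell. The receptors are best known from fibroblasts and pericytes, and PDGF signals drive the growth and migration of such mesenchymal cells. PDGFRL resembles the ligand-binding part of the β receptor but has no kinase domain.

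Promoters of 4 of the 7 genes were taken from RefSeq (GRCh38.p14), and those of PDGFB, PDGFC and PDGFRL were not used here. The 250 bases before the start are shown for both receptors, of which PDGFRA changed in these cells and PDGFRB did not pass any test, and for the ligand PDGFD, which changed with TNFα. Capitals mark a match to TGANTCA, the pattern of AP-1 sites, which stands 32 bases before the start of PDGFRA on the gene's strand. Sequences run 5′ to 3′ on the gene's strand, which is plus for PDGFRA (chr4:54229043-54229292) and minus for PDGFRB (chr5:150155846-150156095) and PDGFD (chr11:104164148-104164397).
PDGFRA: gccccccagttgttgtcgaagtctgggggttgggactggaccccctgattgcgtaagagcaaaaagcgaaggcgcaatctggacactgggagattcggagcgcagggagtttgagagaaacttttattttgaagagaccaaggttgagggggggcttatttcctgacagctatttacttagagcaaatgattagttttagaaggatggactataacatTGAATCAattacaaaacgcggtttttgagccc
PDGFRB: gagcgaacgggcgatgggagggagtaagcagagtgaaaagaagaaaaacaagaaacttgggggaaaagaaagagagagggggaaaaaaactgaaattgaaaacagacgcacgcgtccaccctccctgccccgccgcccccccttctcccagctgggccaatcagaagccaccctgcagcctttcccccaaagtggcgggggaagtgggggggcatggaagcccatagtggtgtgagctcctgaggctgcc
PDGFD: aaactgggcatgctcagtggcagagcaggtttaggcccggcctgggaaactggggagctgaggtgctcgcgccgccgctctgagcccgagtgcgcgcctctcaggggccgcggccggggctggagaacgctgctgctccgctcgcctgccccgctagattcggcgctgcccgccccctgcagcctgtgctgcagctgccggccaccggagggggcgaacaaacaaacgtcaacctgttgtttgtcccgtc

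The marked PDGFRA letters are TGAATCA, not TGACTCA, the form best known for AP-1. Both strands of all 8 promoter entries of the 4 genes were searched for TGANTCA, for TGACGTCA (the cyclic AMP response element), for an NF-kB type site (GGGA, any 2 bases, TTCC) and for GCGGGGGCG (an EGR1 type site). TGACTCA is contained in TGANTCA. The PDGFRA entry held the only TGANTCA match, and the second PDGFRA entry held none. Of 35116 promoters of the same length 6.57% held TGANTCA, and 4.2% held TGACTCA. The EGR1 type site was found 2 times in each of 2 PDGFA entries, at 194 and 54 bases before one start and, in overlapping copies, at 69 and 63 bases before the other. It was present in 4.72% of all promoters. Neither TGACGTCA (1.65% of promoters) nor the NF-kB type site (1.4%) matched in any of the 8 entries. G and C made up 46.8% of the printed PDGFRA window, 58.4% of that of PDGFRB and 69.2% of that of PDGFD.

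As a check of the knockdown, JUN had log2 expression of 10.36, 10.33 and 10.39 with c-Jun siRNA and TNFα, against 11.12, 11.05 and 11.05 with control siRNA and TNFα. With vehicle it had 9.82, 9.85 and 9.81 with c-Jun siRNA, against 10.36, 10.35 and 10.36 with control siRNA. The signal left by the siRNA was 61.1% of control with TNFα and 69.5% with vehicle. TNFα raised JUN by 0.53 with c-Jun siRNA and by 0.72 with control siRNA (log2). JUN thus averaged 10.36 with c-Jun siRNA and TNFα, beside 10.35 with control siRNA and vehicle. The knockdown is therefore relative to control siRNA in the same treatment. The arrays' medians lay between 5.62 and 5.68 over 33297 probe sets, and their number limits the precision. All 4 mesenchymal markers (VIM, ZEB1, CDH2 and FN1) lay above those medians in all 12 arrays. All 4 luminal and epithelial markers (ESR1, PGR, EPCAM and CDH1), the 3 measured of 4 leukocyte markers and all 4 endothelial markers lay below them. CDH1, the E-cadherin gene, was higher with c-Jun siRNA, by 0.95 with TNFα (adjusted p = 1.85e-07) and by 0.55 with vehicle (adjusted p = 9.38e-05), and 0 of the other 3 luminal and epithelial markers passed in either. The summed level (log2) of these 4 was 6.49 to 6.69 for c-Jun siRNA and 6.26 to 6.36 for control siRNA under TNFα, and 6.35 to 6.43 for c-Jun siRNA and 6.04 to 6.37 for control siRNA under vehicle. The summed level (log2) of the mesenchymal list was 13.40 to 13.47 for c-Jun siRNA and 13.59 to 13.64 for control siRNA under TNFα, and 13.33 to 13.36 for c-Jun siRNA and 13.54 to 13.58 for control siRNA under vehicle. For c-Jun siRNA 0 of its 4 genes rose and 1 fell with TNFα, and 0 rose and 4 fell with vehicle. Among all genes, for comparison with this list and the next, 14.1% rose and 14.4% fell for c-Jun siRNA with TNFα. With vehicle 14.4% rose and 14.5% fell. Of 8 pericyte and fibroblast markers 5 lay above the medians in all arrays, among them THY1 and CSPG4, and DCN and LUM lay below. The median of gene means was higher, at 6.97. THY1 (11.57) and RGS5 (8.25) averaged above it, and CSPG4 (6.26), MCAM (6.27) and DES (6.02) averaged below it. The summed level (log2) of the 8 was 12.13 to 12.19 for c-Jun siRNA and 11.62 to 11.72 for control siRNA under TNFα. Under vehicle it was 12.13 to 12.18 for c-Jun siRNA and 11.67 to 11.74 for control siRNA. For c-Jun siRNA 3 of the 8 rose and 0 fell with TNFα, and 2 rose and 1 fell with vehicle. RGS5 (log2 fold change 3.85 with vehicle and 3.55 with TNFα) moved most among them, and the part of these lists in the results below was not tested. Fewer cells of a type and less RNA per cell cannot be told apart in such bulk samples.

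PDGFRL varied most in the family. Its log2 expression was 7.43, 7.29 and 7.42 with c-Jun siRNA and TNFα, against 8.96, 8.98 and 8.94 with control siRNA and TNFα. With vehicle it was 6.29, 6.28 and 6.37 with c-Jun siRNA, against 8.13, 8.08 and 8.29 with control siRNA. No 2 of the 4 groups overlapped, and the order from high to low was control siRNA with TNFα, control siRNA with vehicle, c-Jun siRNA with TNFα, and c-Jun siRNA with vehicle. The c-Jun siRNA left 33.4% of the PDGFRL signal with TNFα (log2 fold change -1.58 ± 0.061, SE, n = 3 per group) and 27.7% with vehicle (-1.85 ± 0.061). PDGFRL was taken into the family with this fall already known, so these siRNA differences are given as a description without a test. TNFα raised PDGFRL under both siRNAs, by 1.06 ± 0.061 with c-Jun siRNA (2.09-fold, adjusted p = 1.05e-10) and by 0.79 ± 0.061 with control siRNA (1.74-fold, adjusted p = 5.1e-09). PDGFRL with c-Jun siRNA and TNFα stayed 0.79 below its level with control siRNA and vehicle, groups in which JUN averaged 10.36 and 10.35. The TNFα effect was larger by 0.27 ± 0.086 with c-Jun siRNA, which did not pass the test (adjusted p = 0.0837, limma). It passed in 5 of 28 alternatives, over adjusted p from 0.0421 to 0.206. This interaction is also the gap between the siRNA differences with TNFα and with vehicle. As PDGFRL was taken with its fall known, it too is a description.

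**Figure D1:**
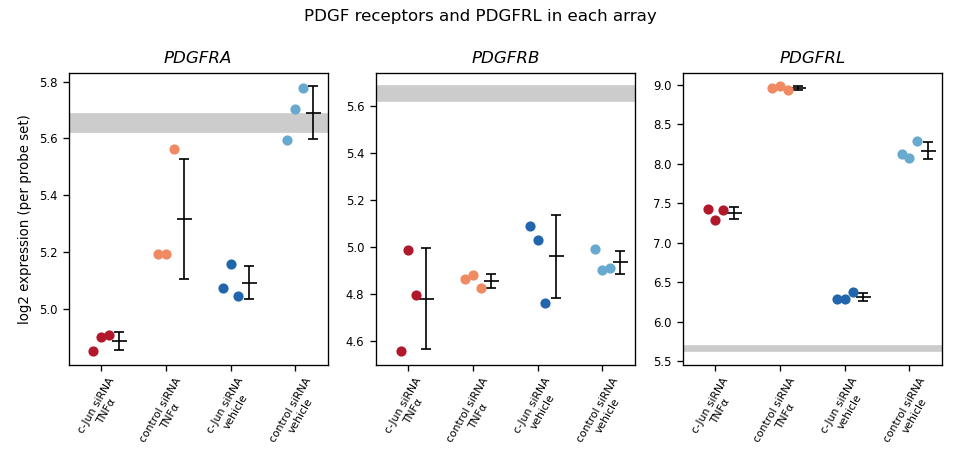
Log2 expression per probe set (vertical axis) of PDGFRA, PDGFRB and PDGFRL in each of the 12 arrays, by group (horizontal axis). Points are arrays, black bars the mean ± SD of 3 arrays, and the grey band the range of array medians (5.62 to 5.68). The PDGFRL groups stand apart from one another, with c-Jun siRNA lowest, and PDGFRA is lowest with c-Jun siRNA and TNFα (4.85 to 4.91).

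PDGFRA, the α receptor, was lower with the c-Jun siRNA and lower with TNFα. It had log2 expression of 4.85, 4.90 and 4.91 with c-Jun siRNA and TNFα, against 5.19, 5.19 and 5.56 with control siRNA and TNFα. With vehicle it had 5.07, 5.16 and 5.04 with c-Jun siRNA, against 5.59, 5.70 and 5.78 with control siRNA. The groups did not overlap, and they ran from control siRNA with vehicle down through control siRNA with TNFα and c-Jun siRNA with vehicle to c-Jun siRNA with TNFα. PDGFRA fell with the knockdown to 74.2% of control with TNFα (log2 fold change -0.43 ± 0.093, adjusted p = 0.00146) and to 66% with vehicle (-0.60 ± 0.093, adjusted p = 5.74e-05). With c-Jun siRNA the TNFα difference was -0.21 ± 0.093 and did not pass (adjusted p = 0.111), though it did without replicate 3 of control siRNA with TNFα, which enters through the shared spread (adjusted p = 0.0443, over 0.0443 to 0.986 in 28 alternatives). With control siRNA PDGFRA fell with TNFα (-0.38 ± 0.093, adjusted p = 0.00338), and the difference between these responses did not pass (0.17 ± 0.13, adjusted p = 0.595). All but 2 PDGFRA values lay below 5.68, the highest array median.

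PDGFRB, the β receptor, did not pass the test in any comparison. Its log2 expression was 4.56, 4.99 and 4.80 with c-Jun siRNA and TNFα, against 4.86, 4.88 and 4.82 with control siRNA and TNFα. With vehicle it was 5.09, 5.03 and 4.76 with c-Jun siRNA, against 4.99, 4.90 and 4.91 with control siRNA. The c-Jun siRNA arrays spread around those of control siRNA in both treatments. The 95% intervals of the siRNA differences ran from -0.29 to 0.14 with TNFα and from -0.19 to 0.24 with vehicle, so changes in signal of the size seen for PDGFRL lay outside them. PDGFRB averaged only 4.88, below the array medians (5.62 to 5.68). At so low a signal the intervals may not bound a fall of the transcript itself. Without replicate 2 of c-Jun siRNA with TNFα, the TNFα difference with c-Jun siRNA passed (-0.28, adjusted p = 0.0443, against -0.18 and 0.215 with all arrays, and a range of 0.0443 to 0.802 over 27 alternatives).

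Among the ligands, PDGFC had the clearest difference between the siRNAs. Its log2 expression was 7.56, 7.43 and 7.23 with c-Jun siRNA and TNFα, against 8.20, 8.13 and 8.18 with control siRNA and TNFα. With vehicle it was 7.87, 7.53 and 7.83 with c-Jun siRNA, against 7.97, 8.01 and 8.11 with control siRNA. All c-Jun siRNA arrays lay below those of control siRNA in the same treatment. PDGFC fell with the knockdown to 59.03% of control with TNFα (-0.76 ± 0.085, adjusted p = 1.38e-06) and to 82.2% with vehicle (-0.28 ± 0.085, adjusted p = 0.0166). The vehicle call rested on replicate 2 of c-Jun siRNA, without which the difference was -0.17 (adjusted p = 0.114), and on replicate 3 of control siRNA (-0.24 without it, adjusted p = 0.0771), over adjusted p from 0.00616 to 0.188 in 30 alternatives.

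The response of PDGFC to TNFα differed between the siRNAs. It fell with TNFα and c-Jun siRNA (-0.34 ± 0.085, adjusted p = 0.00464), where the lowest vehicle array overlapped the TNFα arrays. With control siRNA the TNFα difference was 0.14 ± 0.085 and did not pass (adjusted p = 0.242), although all TNFα arrays lay above the vehicle arrays. The interaction was -0.48 ± 0.12 (adjusted p = 0.0233). Leaving out 1 array ended this call for 7 of the 12 arrays, with values from -0.59 to -0.39 and adjusted p up to 0.0754. The position column as a block ended it as well (-0.40, adjusted p = 0.258).

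PDGFD changed with TNFα and not detectably with the knockdown. Its signal was low, with a 12-array mean of 5.71 near the array medians (5.62 to 5.68) and below the median of gene means (6.97). It had log2 expression of 5.36, 5.30 and 5.52 with c-Jun siRNA and TNFα, against 6.07, 5.64 and 6.14 with c-Jun siRNA and vehicle. With control siRNA it had 5.70, 5.53 and 5.25 with TNFα, against 5.95, 6.02 and 6.04 with vehicle. TNFα arrays lay below vehicle arrays under both siRNAs. PDGFD fell with TNFα to 68.02% of vehicle with c-Jun siRNA (-0.56 ± 0.12, adjusted p = 0.00149) and to 70.1% with control siRNA (-0.51 ± 0.12, adjusted p = 0.00244), and the responses differed by -0.04 ± 0.17. The siRNA differences were -0.10 ± 0.12 with TNFα and -0.05 ± 0.12 with vehicle, with 95% intervals of -0.35 to 0.16 and -0.31 to 0.20.

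The classical ligands PDGFA and PDGFB did not pass in any comparison. PDGFA lay between 4.86 and 5.14 and PDGFB between 5.13 and 5.52 over the 12 arrays, all below the array medians. For PDGFA the siRNA differences were -0.08 ± 0.075 with TNFα and 0.07 ± 0.075 with vehicle, and for PDGFB they were 0.01 ± 0.099 in both treatments. The other PDGFA probe set did not pass in any comparison either. The highest PDGFB value in either TNFα group was its replicate 2, at 5.52 with c-Jun siRNA and 5.45 with control siRNA.

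**Figure D2:**
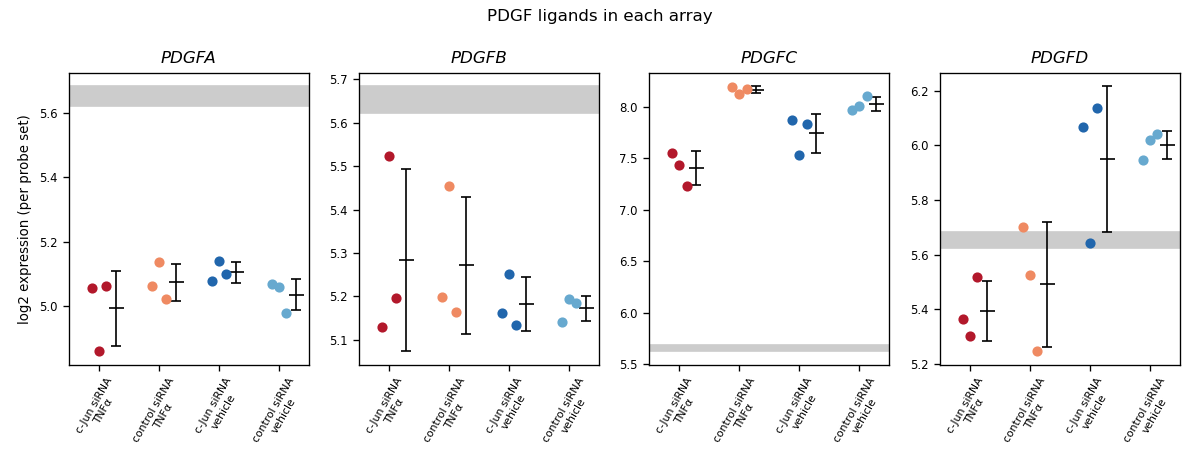
Log2 expression per probe set (vertical axis, its own scale in each panel) of the 4 ligand genes in each of the 12 arrays, by group (horizontal axis). Points are arrays, black bars the mean ± SD of 3 arrays, and the grey band the range of array medians (5.62 to 5.68). PDGFC lies below 7.9 in the 6 c-Jun siRNA arrays, and PDGFD is lower with TNFα under both siRNAs.

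For c-Jun siRNA, leaving out PDGFRL, whose fall was known when the family was picked, 0 of 6 genes rose and 2 fell in either treatment (PDGFC and PDGFRA). Of all genes, 28.5% passed for c-Jun siRNA with TNFα (14.1% higher, 14.4% lower) and 28.9% with vehicle (14.4% higher, 14.5% lower). With TNFα 1 of the 7 rose and 2 fell under each siRNA: PDGFRL rose under both, PDGFC and PDGFD fell with c-Jun siRNA, and PDGFD and PDGFRA fell with control siRNA. Of all genes, 29.6% passed for TNFα with c-Jun siRNA (11.3% higher, 18.3% lower) and 35.7% with control siRNA (13.8% higher, 21.9% lower). For the interaction 0 of the 7 were higher and 1 was lower (PDGFC), against 5.47% of all genes that passed (1.88% higher, 3.59% lower). PDGFRL, among the 7, is a description there. The 3 arrays of one group lay wholly beyond the 3 of the other for 2 of those 6 genes for c-Jun siRNA with TNFα (38.5% of all genes) and for 3 of the 6 with vehicle (39.2%). They did so for 4 of the 7 for TNFα with c-Jun siRNA (38.9%) and for 5 with control siRNA (45.3%). The comparisons share groups, so these counts are not independent. The median log2 fold change of the 7 genes for TNFα was -0.18 with c-Jun siRNA and 0.04 with control siRNA. Over all genes it was -0.02 and -0.02.

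**Figure D3:**
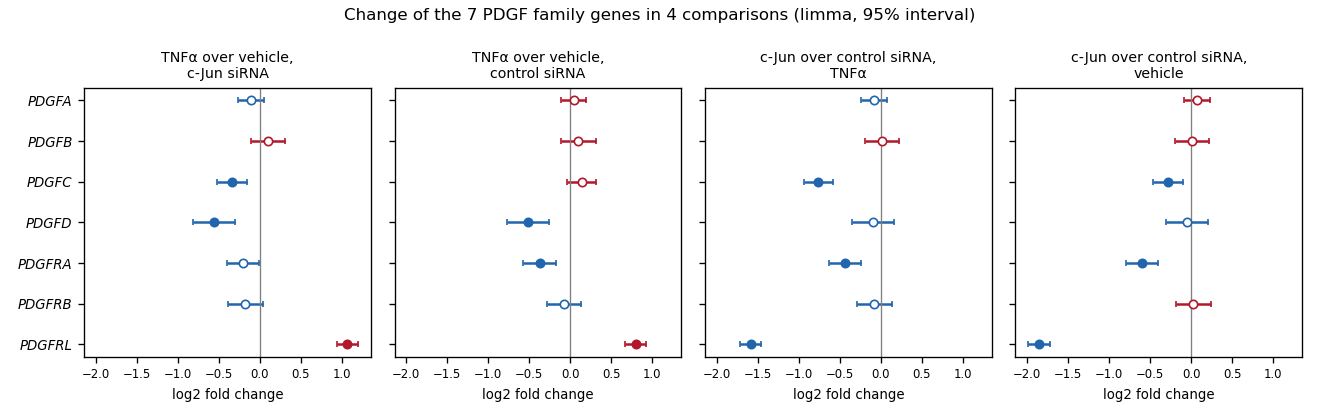
Log2 fold changes (horizontal axis) of the 7 genes (vertical axis) in the 4 pairwise comparisons, with 95% intervals from the fit. Filled points passed an adjusted p of 0.05 and open points did not, with red above 0 and blue below. PDGFRL lies to the right for TNFα (1.06 and 0.79) and to the left for c-Jun siRNA (-1.58 and -1.85), where its points are a description.

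Positions in the array names read as columns of a plate, an inference, since the labels name no batch, and these were set beside the calls. For TNFα with control siRNA, 2 arrays of each group shared column 7, where the differences were 0.86 for PDGFRL, -0.60 for PDGFD and -0.27 for PDGFRA (adjusted p = 0.191 for PDGFRA). For c-Jun siRNA with vehicle, 3 arrays against 1 in column 5 gave -1.98 for PDGFRL, -0.69 for PDGFRA and -0.36 for PDGFC (adjusted p = 0.188 for PDGFC). For c-Jun siRNA with TNFα, columns 7 and 9 gave -1.67 and -1.54 for PDGFRL, -0.72 and -0.80 for PDGFC, and -0.48 and -0.31 for PDGFRA. PDGFRA did not pass in column 7 (adjusted p = 0.254) or column 9 (0.151), and PDGFC did not pass in column 9 (0.149), where 0 of all genes passed. No column held both groups of the TNFα comparison with c-Jun siRNA. A fit with the column as a block left PDGFRL called there (1.21), while PDGFC (-0.22, adjusted p = 0.505) and PDGFD (-0.65, adjusted p = 0.0727) did not pass. With that block the interaction passed for PDGFRL (0.37, adjusted p = 0.0463), where it is a description, and not for PDGFC.

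Of 7 proteases known to process PDGF chains, PLAT and PLAU changed most with the siRNA, and PLAT and FURIN were the called genes with the largest TNFα changes. PLAT codes for tissue plasminogen activator, which activates the latent PDGF-C protein. Its log2 expression was 5.97, 6.17 and 5.97 with c-Jun siRNA and TNFα, against 8.09, 7.69 and 7.99 with control siRNA and TNFα. With vehicle it was 5.18, 5.44 and 5.34 with c-Jun siRNA, against 5.90, 5.96 and 5.92 with control siRNA. PLAT fell with the knockdown under TNFα (-1.89 ± 0.097, adjusted p = 5.79e-11) and under vehicle (-0.61 ± 0.097, adjusted p = 8.35e-05), as did PDGFC. TNFα raised it by 0.71 with c-Jun siRNA and by 2.00 with control siRNA, and these differed (-1.28 ± 0.14, adjusted p = 7.32e-06). The PLAT arrays with c-Jun siRNA and vehicle lay below the array medians (5.62 to 5.68). The sizes of differences that use this group are therefore uncertain. PLAU, the urokinase gene, whose product can activate PDGF-D, moved the other way with the knockdown, by 0.70 with TNFα and 0.91 with vehicle. Its TNFα differences were 0.04 with c-Jun siRNA (adjusted p = 0.539) and 0.25 with control siRNA (adjusted p = 0.000156). FURIN, which cleaves the A and B chains inside the cell, was higher with c-Jun siRNA (0.24 with TNFα and 0.29 with vehicle) and lower with TNFα under both siRNAs (-0.39 with c-Jun siRNA and -0.34 with control siRNA). In each of the 4 pairwise comparisons 3 of the 7 proteases passed, with 2 higher and 1 lower. The shares of all genes that passed, for this and the lists that follow, were 28.5% for c-Jun siRNA with TNFα, 28.9% with vehicle, 29.6% for TNFα with c-Jun siRNA and 35.7% with control siRNA.

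**Figure D4:**
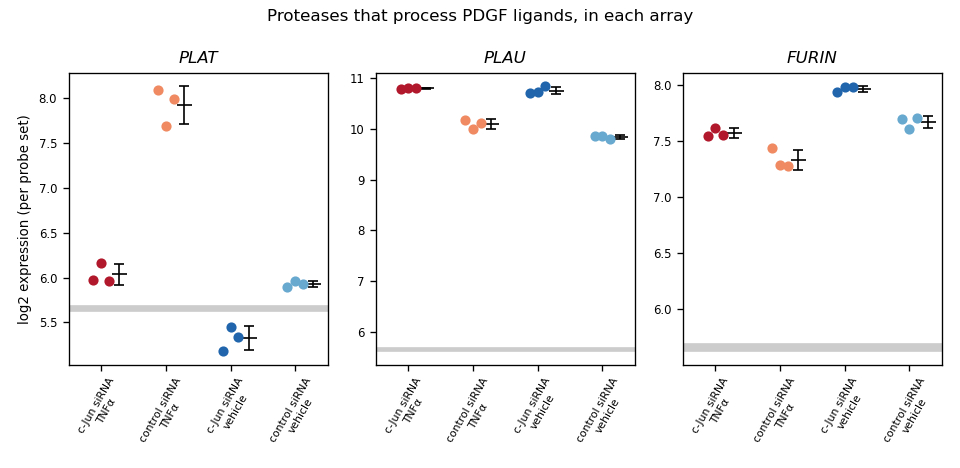
Log2 expression per probe set (vertical axis, its own scale in each panel) of PLAT, PLAU and FURIN in each of the 12 arrays, by group (horizontal axis). Points are arrays, black bars the mean ± SD of 3 arrays, and the grey band the range of array medians (5.62 to 5.68). PLAT is highest with control siRNA and TNFα (7.69 to 8.09), and PLAU is higher in all c-Jun siRNA arrays.

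Genes that act downstream of the receptors moved in both directions. Of 22 measured receptor-proximal signalling genes, 6 rose and 5 fell for c-Jun siRNA with TNFα, and 8 rose and 5 fell with vehicle. The PI3-kinase subunit gene PIK3CB rose by 0.68 with TNFα and 0.63 with vehicle. FYN, which codes for a Src family kinase, fell with c-Jun siRNA (-1.08 with TNFα and -0.39 with vehicle, log2). For TNFα, 4 rose and 8 fell with c-Jun siRNA and 6 rose and 10 fell with control siRNA. STAT5A, a transcription factor that PDGF receptors can activate, rose by 3.13 with c-Jun siRNA and by 3.60 with control siRNA. Its vehicle signal was low, averaging 5.72 with c-Jun siRNA and 5.35 with control siRNA, beside array medians of 5.62 to 5.68. PIK3R1, which encodes a PI3-kinase regulatory subunit, rose by 0.67 with c-Jun siRNA and by 0.85 with control siRNA. It was also higher with c-Jun siRNA than with control siRNA, by 0.535 with TNFα and by 0.72 with vehicle. The median change of this list was within 0.08 of 0 in all 4 comparisons (0.003 for c-Jun siRNA with TNFα, 0.03 with vehicle, and -0.07 for TNFα under either siRNA).

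The 5 measured negative regulators include phosphatases and ubiquitin ligases that act on the receptors. PTPN1 and PTPN2, which remove phosphate from receptor tyrosines, rose with TNFα by 0.89 and 0.65 with c-Jun siRNA and by 1.06 and 0.76 with control siRNA. CBLB, a ubiquitin ligase, fell with c-Jun siRNA (-0.38 with TNFα and -0.21 with vehicle), and its relative CBL rose (0.16 with TNFα and 0.35 with vehicle). Of the 5, 1 rose and 1 fell for c-Jun siRNA with TNFα, and 2 rose and 1 fell with vehicle. For TNFα 2 rose and 2 fell with c-Jun siRNA, and 2 rose and 0 fell with control siRNA. The co-receptor NRP1 fell with c-Jun siRNA, by 0.23 with TNFα and by 0.39 with vehicle. SPARC, a matrix protein that binds PDGF-B, rose with c-Jun siRNA by 0.24 with TNFα and by 0.10 with vehicle. LRP1, an endocytic receptor that associates with PDGFRB, fell with TNFα (-0.41 with c-Jun siRNA and -0.33 with control siRNA). Of these 4 extracellular partners, 1 rose and 1 fell for c-Jun siRNA in each treatment, while for TNFα 1 rose and 2 fell with c-Jun siRNA and 0 rose and 2 fell with control siRNA.

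Of 7 measured early genes that PDGF is known to induce, 2 rose and 1 fell for c-Jun siRNA with TNFα, and 4 rose and 2 fell with vehicle. For TNFα 4 rose and 1 fell with c-Jun siRNA, and 3 rose and 3 fell with control siRNA. IER2 was higher with c-Jun siRNA than with control siRNA under TNFα, by 0.61. EGR1, an early transcription factor gene, fell with c-Jun siRNA (-0.56 with TNFα and -1.21 with vehicle). The chemokine gene CCL2 was higher with c-Jun siRNA, by 0.15 with TNFα and by 1.84 with vehicle. CCL2 rose with TNFα, by 1.51 with c-Jun siRNA and 3.20 with control siRNA. FOSL1 rose with TNFα by 0.37 with c-Jun siRNA and by 0.62 with control siRNA, and FOS fell (-0.40 under either siRNA). Among 11 related genes, which are VEGF family ligands and receptor tyrosine kinases of the PDGF and VEGF receptor classes, PGF (placental growth factor) rose with c-Jun siRNA by 0.24 with TNFα and by 1.72 with vehicle. PGF fell with TNFα (-2.71 with c-Jun siRNA and -1.23 with control siRNA). With TNFα PGF averaged 5.57 with c-Jun siRNA and 5.34 with control siRNA, below the array medians (5.62 to 5.68). At so low a signal the sizes of these PGF differences are uncertain. VEGFC, a lymphatic growth factor, rose with TNFα by 1.13 with c-Jun siRNA and by 1.31 with control siRNA. Of the 11 genes 1 rose and 0 fell for c-Jun siRNA with TNFα, and 2 rose and 1 fell with vehicle. For TNFα 1 rose and 3 fell under either siRNA.

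Over the 12 arrays the genes most like PDGFRL were FAM83B (Pearson r = 0.992) and the metallothionein gene MT1F (0.991). Under TNFα MT1F averaged 10.52 for c-Jun siRNA and 11.83 for control siRNA, and under vehicle 9.41 for c-Jun siRNA and 11.19 for control siRNA (log2). MT1F was picked by this correlation, so sharing the order of groups with PDGFRL is no further likeness. PDGFRA was most like the calcium channel subunit gene CACNB2 (0.971) and NT5DC3 (0.959). PDGFC was most like MATN2, a matrilin gene (0.944), and SNORD113-4 (0.943), and PDGFD most like ZNF284 (0.937) and PEX11A (0.932). The best matches of PDGFA, PDGFB and PDGFRB were DENND1A (0.894), FLJ40288 (0.934) and EIF2B5 (0.938), followed by MRPL4 (0.862), NINJ2 (0.926) and MID2 (0.902), and they rest on ranges of 0.28, 0.39 and 0.54 log2 units. Within the family r was highest between PDGFC and PDGFRA (0.699) and between PDGFC and PDGFRL (0.639), and lowest between PDGFB and PDGFD (-0.45). These values describe the 12 arrays, which share the 4 groups, and carry no test.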

How the data were processed

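Total RNA of 12 BT549 samples was measured on Affymetrix arrays. The values deposited by the authors are used as log2 expression per probe set. Their log base is an inference from values between 2.27 and 14.0, and matching quartiles (within 0.061 across arrays) show a shared scale. Per the submitters' processing notes the tools were Affymetrix Expression Console 1.1 and PLIER, without their roles. The values were not normalised further and no filter on dim genes was set. Of 33297 probe sets 19181 had 1 gene symbol, giving 17958 genes.

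A linear model with a mean for each of the 4 groups was fitted with limma 3.58.1 (R 4.3.3), using a mean-variance trend (8 residual and 9.29 prior degrees of freedom). All p-values are two-sided and were adjusted by Benjamini and Hochberg's method across the 17958 genes, with 0.05 as the threshold. A fold change is given with its standard error. The script was tested on simulated data. Python 3.11.15 with pandas 2.3.3 and matplotlib 3.10.9 handled tables and plots.

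The members and lists were chosen with earlier results of these data known. Named genes are JUN, the 7 members, up to 2 called genes per list and pairwise comparison with the largest absolute change, and the 2 genes most correlated with each member among those with at least 50% of its SD. Of 68 list genes 56 were measured. RGS5 and CDH1 were named after their values were seen, and so were list genes given beyond these ranks. The motif TGACTCA was added after the data were seen. A comparison of protein sequences was not made, as no protein table was used here. Same-numbered arrays of different groups correlated between -0.059 and 0.088 in their deviations (18 pairs), so numbers were not taken as pairs. The array of c-Jun siRNA with TNFα replicate 3, named like a rerun of replicate 1, differed from it with an SD of 0.121 over genes, against 0.119 to 0.142 for all 12 pairs of arrays within groups, and was kept as its own sample, as its label has it. Alternatives were floors on low values, other normalisation, filters, probe set rules, variance models, weights, fits of only the compared groups, a stricter threshold, a replicate block, position column blocks, averaging of the second run, and each array left out.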

Additional observations from a re-analysis of the deposited data

Results flagged for a closer look

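The TNFα effect differed between c-Jun siRNA and control siRNA for PDGFC, with a difference of -0.48 on the log2 scale (adjusted p = 0.0233, limma interaction), over adjusted p from 0.00192 to 0.258 in 28 alternatives. All 3 c-Jun siRNA arrays with TNFα lay below all 6 control siRNA arrays, and so did the 3 with vehicle. That separation shows the siRNA difference and not a difference in the TNFα response. The same test passed for JUN, the knocked-down gene, at -0.19 (adjusted p = 0.0173), over adjusted p from 0.0102 to 0.0806 in 28 alternatives. No explanation was tested for either.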

How the results depend on the processing

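Of 531 fold changes of called results (family genes and JUN) under the alternatives, 500 stayed past the threshold in the same direction, 31 no longer passed and 0 changed sign. These include the c-Jun siRNA differences of JUN, the siRNA target, and of PDGFRL, which were known beforehand. For PDGFRL 30 of 30 stayed with vehicle and 30 of 31 with TNFα, and the same held for JUN. The total therefore does not measure how stable the other calls were. The interaction depended most on the choices, against 1 member called in the main fit. With values under 4 or under 5 set to that floor, without the mean-variance trend and at an adjusted p under 0.01, 0 members were called. With quantile normalisation, array weights or the dimmest 50% of genes left out, 2 were called (PDGFRL joining PDGFC). When 1 array was left out, 0 to 2 were called. For PDGFRL the interaction is a description. For TNFα with control siRNA 1 member was called with the dimmest 50% left out, when only 2 of the 7 remained. For TNFα with c-Jun siRNA 1 was called with the position column as a fixed block, when 2376 of all genes were called against 5320. That block gave 3448 of all genes for c-Jun siRNA with vehicle (5183 without it) and 531 for the interaction (983), for which a threshold of 0.01 gave 553. Within column 5 there were 2264 for c-Jun siRNA with vehicle, and within column 7 there were 930 for c-Jun siRNA with TNFα (5116 over all arrays). For c-Jun siRNA with TNFα 0 members and 0 of all genes were called within column 9, which held 2 arrays against 1, and JUN stood at -0.74 there (adjusted p = 0.0727). The vehicle call of PDGFC ended with either floor (adjusted p = 0.0758 and 0.0808). With values under 5 set to 5, PDGFRB gave no value where all its arrays lay at the floor. The causes were not tested. With the replicate block all members kept their calls and PDGFC gave an interaction of -0.48 (adjusted p = 0.0205).

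All changes of sign were in values that had not passed. PDGFA for TNFα with control siRNA became -3e-04 with the mean of its probe sets and -0.0198 with the column as a fixed block. PDGFB for c-Jun siRNA with vehicle became -8e-04 with array weights and -0.0014 with the column as a fixed or random block or within column 5, and with TNFα -0.0019 with array weights and -0.035 within column 9. Its interaction became -0.0068 with quantile normalisation and -0.0011 with array weights. PDGFRB for c-Jun siRNA with TNFα became 0.13 within column 7. Leaving out 1 array gave -0.0186 to 0.1776 for PDGFB with TNFα and c-Jun siRNA. For c-Jun siRNA with vehicle it gave -0.0252 to 0.0338 for PDGFB, -0.1466 to 0.1003 for PDGFD and -0.0397 to 0.1263 for PDGFRB. For c-Jun siRNA with TNFα it gave -0.1082 to 0.102 for PDGFB, -0.2192 to 0.0081 for PDGFD and -0.18 to 0.0354 for PDGFRB. For the interaction it gave -0.118 to 0.0922 for PDGFB, -0.1971 to 0.0606 for PDGFD and -0.2058 to 0.0095 for PDGFRB.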
